A study of Mus musculus with 7 samples.

Results

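Genes for matrix metalloproteinases (MMPs), for the adamalysins of the ADAM and ADAMTS families and for their inhibitors (TIMPs) were examined in cancer-associated fibroblasts (CAFs) of mouse pancreatic tumors. The members were all genes of the deposited count table whose symbols begin with Mmp, Timp, Adam, Adamts or Adamtsl followed by a digit. There were 50 of 12771 genes: 14 MMPs, 3 TIMPs, 12 ADAMs, 16 ADAMTS and 5 ADAMTS-like (ADAMTSL) genes. The rule reads the symbols and no measured value, but this gene group was itself chosen with earlier results of these data known.

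The CAFs came from orthotopic tumors in C57BL/6 male mice (C57BL/6 J in the study's methods) that were 8 weeks old at injection, and the tumors were collected 2 to 3 weeks later. The mice had received KPC cells (cultured mouse pancreatic cancer cells) with a non-targeting short hairpin RNA (shControl, 3 libraries, replicates 1, 2 and 4) or a hairpin against Brca2 (shBrca2, 4 libraries, replicates 1 to 4). The hairpin was carried by the injected cells of this single line, it lowers Brca2 rather than deleting it, and the host stroma was wild-type in both groups. Tumors were digested with collagenase D, and live cells positive for podoplanin (PDPN) and negative for CD45, CD31 and EpCAM were sorted and sequenced at the 3′ ends of their transcripts with a variant of MARS-seq. The comparison asks how lower Brca2 in the cancer cells alters the RNA of the fibroblasts around them.

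MMPs are zinc proteases that are made as inactive precursors and cleave collagens, proteoglycans and other matrix proteins. ADAMs are mostly membrane-bound and release the outer parts of receptors, ligands and adhesion molecules from the cell surface, while ADAMTS enzymes are secreted and cut proteoglycans, procollagens and microfibril proteins. ADAMTSL proteins share the ancillary domains of ADAMTS enzymes and lack the protease domain. TIMPs bind the active enzymes and block them, and fibroblasts are a major source of both proteases and inhibitors in the stroma of solid tumors.

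Total counts ran from 1898679 to 5990579 per library, with the lowest in shBrca2 replicate 3 and the highest in shBrca2 replicate 2. Brca2 itself had a log2 fold change of -0.03 ± 0.47 (SE), which does not measure a knockdown made in other cells. All 8 fibroblast markers were in the table, with a summed normalized count (count divided by the library's DESeq2 size factor) of 123200 to 140550 in shControl and 97835 to 117050 in shBrca2 libraries. Of these markers, Dcn and Lum were lower by the test described below. The fibroblast sum was lower in every shBrca2 library than in every shControl library, and 7 of the 8 estimates were below 0. The sums overlapped without Dcn and stayed apart with any other 1 of the markers left out. The part of this difference in the results below was not tested. Other cell types were present at low counts: 6 of 8 epithelial markers were in the table, summing to 384 to 1142 in shControl and 1434 to 2017 in shBrca2, and 4 of them, Krt7, Krt8, Krt18 and Krt19, were higher. The 8 of 10 macrophage markers in the table summed to 273 to 312 and 413 to 446, with Csf1r and C1qa higher. That difference came from Csf1r: without it the macrophage sums were 163 to 209 and 136 to 206, and the estimates of Cd68, Lyz2 and Fcer1g were below 0 (log2 fold changes -0.32, -0.26 and -0.11, none called). The 6 of 9 neutrophil markers in the table summed to 4.86 to 24.0 and 24.1 to 147, with 3 of them at 0 in at least 1 library. Pericyte markers (6 of 6) ran from 368 to 443 and 365 to 514, with Notch3 higher, and mesothelial markers (6 of 6) from 782 to 2387 and 1725 to 2178. Endothelial markers (2 of 6) summed to 38.4 to 104 and 74.3 to 107. Kdr made up most of this sum, and its groups overlapped (log2 fold change 0.51, not called). Pecam1 was lower in every shBrca2 library (1.95 to 17.7 and 0 to 1.72, log2 fold change -3.60, DESeq2 adjusted p = 0.031). With at most 14 reads in a library, Pecam1 missed the count threshold of a call. Acinar markers (7 of 8) summed to 157 to 258 and 102 to 166, with Prss2, Cpa1 and Cela2a lower and Cela1 higher. Without Cela1 the acinar sums did not overlap (79.8 to 214 and 13.8 to 60.0), and the 6 remaining estimates were below 0. The part of acinar RNA in the results below was not tested. Each of Dcn, Lum, C1qa, Krt7, Krt19, Notch3, Prss2, Cpa1 and Cela1 lost its call without at least 1 library. The epithelial sum was higher in every shBrca2 library than in every shControl library, also with any 1 of its markers left out. Its part in the results below was not tested. Cdh1 (0.85 to 6.33 and 6.91 to 17.3) and Cldn7 (0.85 to 2.92 and 0 to 7.745) were low, so the 4 keratin genes made up most of the epithelial sum. Epcam and Cldn4 were not in the table. Of the mesothelial markers, Msln did not overlap either (96.5 to 519 and 558 to 665, not called), while Upk3b and Lrrn4 had estimates below 0. The cell type behind the keratin counts was not tested. The neutrophil sums touched (24.04 and 24.10) and overlapped without Mpo or without Ngp.

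The clearest contrast among the members was between Timp3, which was higher in shBrca2 CAFs, and Mmp3, which was lower. The sequence just upstream of each is shown because the pair moved in opposite directions. The upstream sequences of Mmp10 and Mmp13 are set beside that of Mmp3. These genes are the nearest members on either side of Mmp3 on chromosome 9. Each run holds the 250 bases before the RefSeq transcript start on GRCm38.p6. Capitals in the MMP sequences mark the AP-1 letters TGANTCA and the TATA letters TATAAA, and capitals in the Timp3 sequence mark the GC box letters GGGCGG on the other strand.
Mmp3, chr9:7445572-7445821, plus strand: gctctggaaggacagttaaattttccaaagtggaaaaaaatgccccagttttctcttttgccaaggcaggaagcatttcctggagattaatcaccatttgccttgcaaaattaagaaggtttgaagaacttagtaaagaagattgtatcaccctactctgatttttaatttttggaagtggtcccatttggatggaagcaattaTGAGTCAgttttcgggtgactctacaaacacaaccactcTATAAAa
Mmp10, chr9:7502092-7502341, plus strand: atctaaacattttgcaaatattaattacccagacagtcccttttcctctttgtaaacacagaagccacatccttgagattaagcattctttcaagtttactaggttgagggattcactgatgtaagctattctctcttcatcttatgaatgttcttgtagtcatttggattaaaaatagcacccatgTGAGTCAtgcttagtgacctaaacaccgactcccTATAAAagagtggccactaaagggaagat
Mmp13, chr9:7272264-7272513, plus strand: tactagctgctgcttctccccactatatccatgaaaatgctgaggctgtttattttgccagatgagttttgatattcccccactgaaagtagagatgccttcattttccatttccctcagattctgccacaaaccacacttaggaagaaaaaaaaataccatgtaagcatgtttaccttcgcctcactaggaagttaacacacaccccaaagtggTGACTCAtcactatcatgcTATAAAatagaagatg
Timp3, chr10:86300162-86300411, plus strand: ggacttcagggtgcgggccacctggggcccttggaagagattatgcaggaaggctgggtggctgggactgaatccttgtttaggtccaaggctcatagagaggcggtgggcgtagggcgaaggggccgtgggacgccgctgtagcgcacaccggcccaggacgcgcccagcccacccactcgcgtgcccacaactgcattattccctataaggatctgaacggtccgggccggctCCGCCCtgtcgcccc
The 3 MMP sequences each held 1 AP-1 match and 1 TATA match. In Mmp3, Mmp10 and Mmp13 the AP-1 letters began 46, 63 and 35 bases before the annotated start. The TATA letters began 7, 29 and 16 bases before it, so these starts are not placed alike relative to the TATA letters. Timp3 held neither AP-1 nor TATA letters. Its sequence had 65.6% G and C bases, against 37.6% in Mmp3, 37.2% in Mmp10, 40.4% in Mmp13 and a median of 52.4% over all promoters. Promoter sequences of the same length were found for 31 of the 50 members (34 promoters). With both strands searched, 4 of these 34 (11.8%) held TGANTCA, in Mmp3, Mmp10, Mmp13 and Adam19, against 6.75% of all 32851 promoters. TATAAA was found in 14.7% of the member promoters and 12.4% of all, and GGGCGG in 58.8% and 32.7%. The hypoxia response letters ACGTG were found in 20.6% of member promoters and 16.6% of all. A match here is a description of letters and not of binding.

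A gene was called when its DESeq2 likelihood ratio test gave an adjusted p under 0.1 over all genes, its absolute log2 fold change exceeded 0.5 and its mean normalized count exceeded 5, which are the thresholds of the study's methods. Of the 50 members, 11 were called (22%), against 9.04% of all 12768 genes tested. 2 members were higher, Timp3 and Adamts9, where 3.77% of all genes were higher. 9 members were lower, Mmp3, Timp2, Adam22, Adam33, Adamts1, Adamts2, Adamts4, Adamts5 and Adamts15, where 5.27% of all genes were lower. In 12 members (24%) the 2 groups had no overlap in normalized counts, against 17.1% of all genes. In 3 of these the shBrca2 libraries were above the shControl libraries (7.78% of all genes) and in 9 they were below (9.29%). The median log2 fold change was -0.31 over the members and 0.01 over all genes, and 33 members were below 0. With only genes of a mean normalized count over 5, the medians were -0.23 and 0.002. All 50 were tested, and 45 had a mean normalized count over 5, while 14 had fewer than 30 reads in every library. In these bulk samples, fewer cells of a type and less RNA per cell cannot be told apart.

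**Figure D1:**
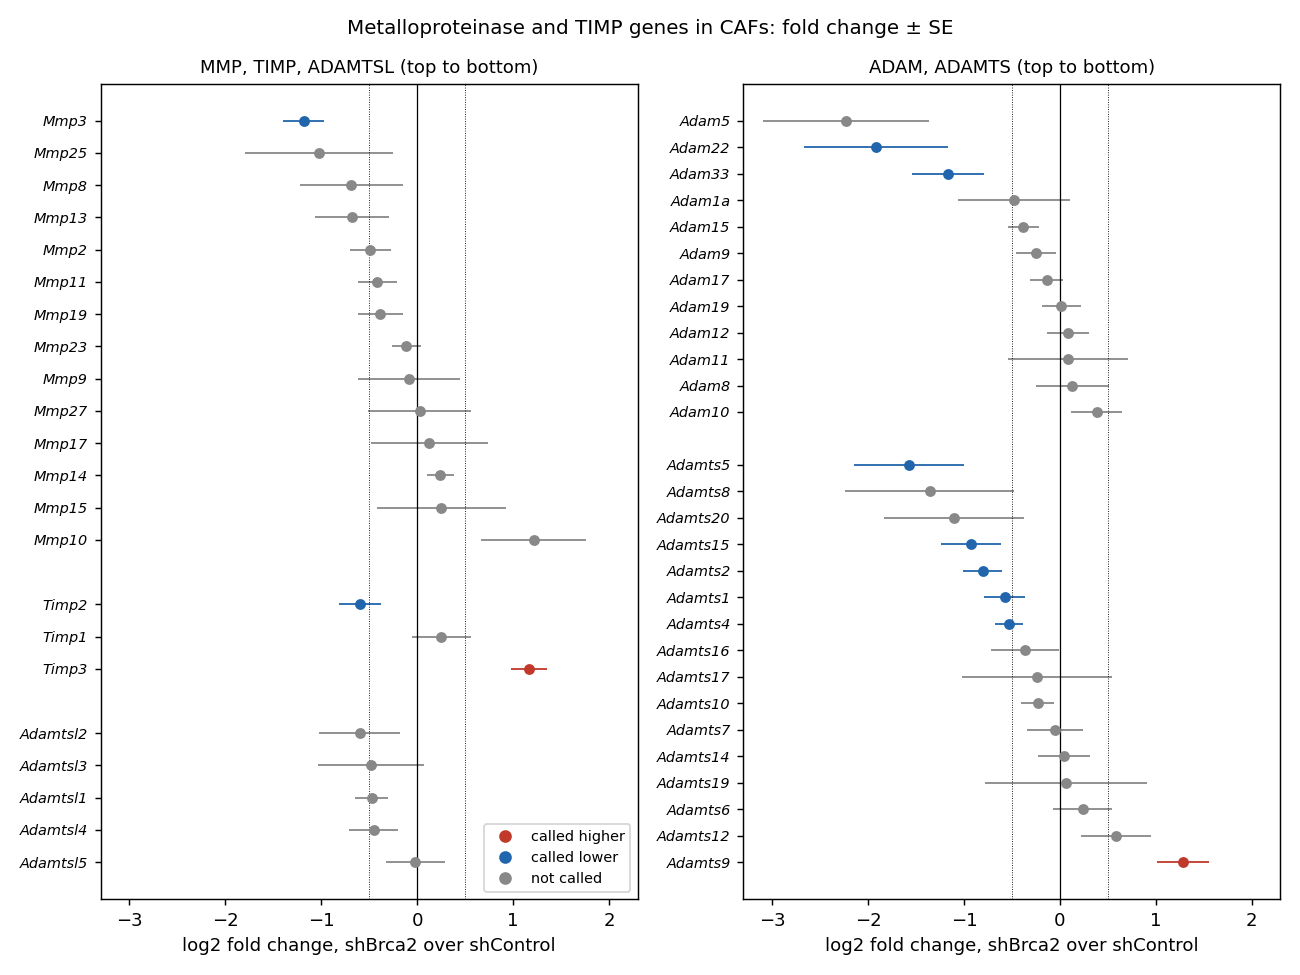
Log2 fold change of shBrca2 over shControl CAFs (x axis) for the 50 members (rows), grouped by subfamily, with standard errors as bars and dotted lines at the fold threshold of 0.5 in each direction. Called members lie in the ADAMTS, ADAM, TIMP and MMP groups and none in the ADAMTSL group, and Timp3 and Adamts9 are the 2 called higher.

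Among the MMPs 1 of 14 was lower and 0 were higher by DESeq2 or by edgeR, with 1 above 0 at an unadjusted p under 0.05 in each. Among the TIMPs 1 was higher and 1 lower of 3. Of the 12 ADAMs 2 were lower and 0 higher by DESeq2 or edgeR, and 0 were above 0 at an unadjusted p under 0.05. Of the 16 ADAMTS genes 5 were lower and 1 higher. Of the 5 ADAMTSL genes 0 were called by DESeq2 or edgeR, with 1 at an unadjusted p under 0.05 in each. The shares called were 7.14% of MMPs, 66.7% of TIMPs, 16.7% of ADAMs, 37.5% of ADAMTS and 0% of ADAMTSL genes, against 9.04% of all genes. Median log2 fold changes were -0.25 for MMPs, 0.25 for TIMPs, -0.19 for ADAMs, -0.30 for ADAMTS and -0.47 for ADAMTSL genes. Over members with a mean normalized count over 5 they were -0.11, 0.25, -0.14, -0.23 and -0.47 in the same order. The differences between subfamilies were not tested.

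The summed count of each subfamily, which its most abundant genes dominate, was also compared between libraries. The 16 ADAMTS genes summed to 4528 to 5155 in shControl libraries and 3014 to 4166 in shBrca2 libraries, without overlap. ADAM sums were 1654 to 1829 against 1384 to 1610.5, and ADAMTSL sums 429 to 513 against 338 to 371, also without overlap. For the MMPs the sums overlapped (14209 to 16713 and 10711 to 15205), as they did for the TIMPs (16684 to 29656 and 21398 to 27761).

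Among the inhibitors, Timp3 (GRCm38 chromosome 10, 86300412 to 86349505) rose. TIMP3 is held in the matrix and inhibits ADAM17 and aggrecan-cleaving ADAMTS enzymes in addition to MMPs. Its normalized counts were 1621, 2225 and 1529 in the shControl libraries and 4537, 3490, 4427 and 3631 in the shBrca2 libraries. Every shBrca2 library lay above every shControl library. The difference was 2.24-fold (log2 fold change 1.17 ± 0.19 SE, DESeq2 adjusted p = 3.92e-07), and the gene stayed called when any of the 7 libraries was left out. In a later annotation of the mouse genome (GENCODE vM39 on GRCm39), 21.3% of the Timp3 exon bases were shared with Syn3 on the opposite strand. Syn3 was not among the genes of the count table.

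Timp2 (chromosome 11, 118301061 to 118355411), whose product also takes part in the activation of pro-MMP2 together with MMP14, was lower. It had 6307, 4133 and 6735 normalized counts in shControl and 3215, 3866, 4744 and 3332 in shBrca2. The groups overlapped, because shControl replicate 2 was lower than shBrca2 replicate 3. The log2 fold change was -0.60 ± 0.22 (SE, DESeq2 adjusted p = 0.067). Timp2 was called in 3 of the 7 fits with 1 library left out, and the adjusted p rose to 0.28 without shControl replicate 1, 0.35 without shControl replicate 4, 0.28 without shBrca2 replicate 1 and 0.25 without shBrca2 replicate 4. In edgeR it was not called (adjusted p = 0.11), and 7.44% of its exon bases were shared with Cep295nl on the same strand in the later annotation.

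Timp1 had the widest spread of the inhibitors. Its normalized counts were 10295, 23298 and 8421 in shControl and 15907, 20406, 15948 and 14436 in shBrca2. The shControl group included both the highest and the lowest library, and Timp1 was not called (log2 fold change 0.25 ± 0.31 SE, DESeq2 adjusted p = 0.77). Without shControl replicate 2, it was called higher (log2 fold change 0.83, DESeq2 adjusted p = 0.0012), and without shControl replicate 4 the estimate was -0.011 (adjusted p = 0.98).

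Of the 14 MMPs, Mmp3 (chromosome 9, 7445822 to 7455975) alone was called in the fit of all libraries. It codes for stromelysin-1, which cleaves proteoglycans, fibronectin and other matrix proteins and activates other pro-MMPs. The normalized counts were 1585, 1196 and 1035 in shControl and 510, 710, 580 and 437 in shBrca2. All shBrca2 libraries were below all shControl libraries. Mmp3 was 2.27-fold lower (log2 fold change -1.18 ± 0.22 SE, DESeq2 adjusted p = 7.35e-06) and was called without any single library.

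The gelatinase gene Mmp2, whose product degrades denatured collagen and basement membrane collagen, had the highest count of the MMPs. It had 8492, 9195 and 7854 normalized counts in shControl and 5472, 8581, 5306 and 4894 in shBrca2. Replicate 2 of shBrca2 lay within the shControl range, and the other shBrca2 libraries were below it. This gave a log2 fold change of -0.49 ± 0.21 (SE, DESeq2 adjusted p = 0.16), so that Mmp2 was not called. Without shBrca2 replicate 2 it was called lower (log2 fold change -0.71, DESeq2 adjusted p = 0.00045), while the other fits with 1 library left out gave -0.40 to -0.55 and no call.

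Mmp14, the membrane-type MMP that activates pro-MMP2 and cleaves collagen at the cell surface, ranged from 2146 to 2636 normalized counts in shControl and from 2617 to 2886 in shBrca2. Its log2 fold change was 0.24 ± 0.14 (SE, DESeq2 adjusted p = 0.36). Mmp23, a small MMP without the usual hemopexin domain, had a log2 fold change of -0.11 ± 0.15 (SE). The other gelatinase gene, Mmp9, was low, with 4.86 to 24.8 normalized counts in shControl and 10.4 to 24.1 in shBrca2, and its log2 fold change of -0.08 ± 0.53 (SE) has a 95% interval from -1.12 to 0.96.

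The other stromelysin genes differed in sign. Mmp10, stromelysin-2, had 7.69, 5.06 and 5.84 normalized counts in shControl and 15.5, 19.2, 12.1 and 10.2 in shBrca2. Its groups did not overlap, but with raw counts of 4 to 33 it was not called (log2 fold change 1.21 ± 0.55 SE, DESeq2 adjusted p = 0.18). Mmp11, which is expressed by stromal cells in many carcinomas, had a log2 fold change of -0.41 ± 0.21 (SE, DESeq2 adjusted p = 0.26). Thus of the 3 stromelysin genes Mmp3 was called and the others had an unadjusted p under 0.05 only.

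Mmp13, Mmp3, Mmp10, Mmp8 and Mmp27 lie in this order on chromosome 9 of GRCm38, with 162, 46.4, 48.2 and 2.91 kb between consecutive members. Genes outside the count table were not placed, so other genes may lie between them. Their log2 fold changes were -0.68 ± 0.39, -1.18 ± 0.22, 1.21 ± 0.55, -0.69 ± 0.54 and 0.03 ± 0.54 (SE). Mmp3 alone was called, so the consecutive members Mmp3 and Mmp10 had estimates of opposite sign, of which the second did not pass the test. Mmp13, collagenase-3, was called lower without shControl replicate 2 (log2 fold change -0.98, DESeq2 adjusted p = 0.083), whereas without shControl replicate 1 its estimate was -0.16 (adjusted p = 0.94). Mmp19, with 871, 1172 and 886 normalized counts in shControl and 593, 780, 1040 and 584 in shBrca2, was called lower without shBrca2 replicate 3 (log2 fold change -0.58, DESeq2 adjusted p = 0.065), and without shControl replicate 2 the estimate was -0.24 (adjusted p = 0.71). On the opposite strand, other genes share 36.8% of the Mmp19 and 24.3% of the Mmp2 exon bases in the later annotation.

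The balance of protease and inhibitor transcripts was described as a log2 ratio of normalized counts within each library, with no test, and used to compare libraries only. Mmp3 to Timp1 was -2.70, -4.28 and -3.02 in shControl and -4.96, -4.85, -4.78 and -5.05 in shBrca2. The mean was -3.34 ± 0.84 (SD, n = 3) in shControl and -4.91 ± 0.12 (SD, n = 4) in shBrca2, and the groups did not overlap. For Mmp3 to Timp3, a pair chosen after the values of both were seen, the ratio was -0.50 ± 0.44 in shControl and -2.86 ± 0.39 in shBrca2 (SD). These groups had to be apart, because Mmp3 was lower and Timp3 higher in every shBrca2 library than in every shControl library. Their separation is therefore no further result. By contrast, Mmp2 to Timp2 was 0.60 ± 0.49 and 0.66 ± 0.41 (SD), with overlapping groups. Mmp14 to Timp2 was -1.28 ± 0.55 and -0.45 ± 0.25 (SD), with shControl replicate 2 at -0.65 inside the shBrca2 range.

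**Figure D2:**
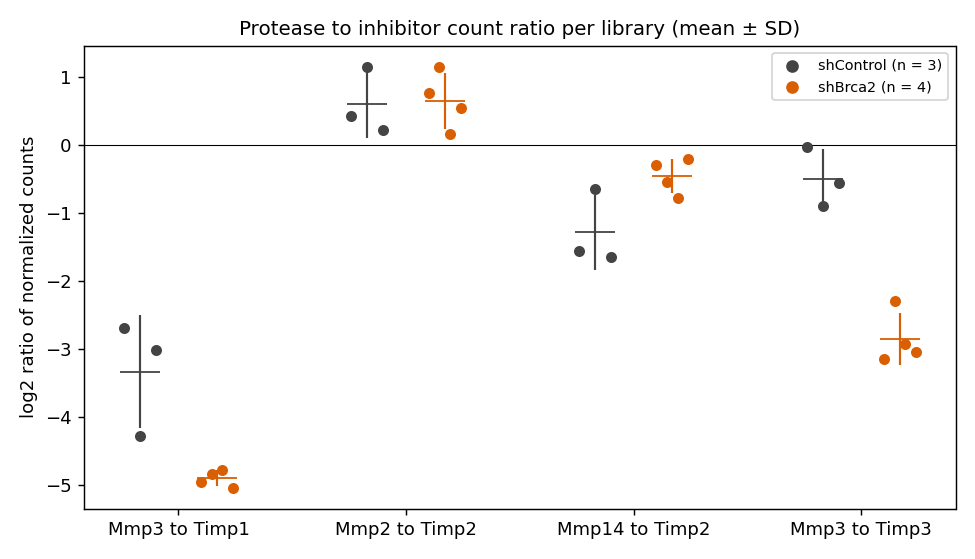
Log2 ratio of normalized counts (y axis) for 4 protease and inhibitor pairs (x axis), with 1 point per library and the group mean ± SD as lines. The groups are apart for Mmp3 to Timp1 and Mmp3 to Timp3 and overlap for the pairs with Timp2. For Mmp3 to Timp3 the separation follows from the counts of each gene, whose groups do not overlap.

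Most of the called members were ADAMTS genes. The proteoglycanase group, whose enzymes cleave aggrecan and versican, had 7 members, of which 4 were lower (Adamts1, Adamts4, Adamts5 and Adamts15) and 1 was higher (Adamts9). Adamts8 and Adamts20 were not called, with at most 8 and 10 reads in a library and mean normalized counts under the count threshold. Of the 2 procollagen N-proteinase genes, Adamts2 was lower and Adamts14 was not called (log2 fold change 0.04 ± 0.27 SE).

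Adamts9 (chromosome 6, 92772699 to 92944450) rose against the other proteoglycanase genes. It had 42.7, 49.3 and 54.5 normalized counts in shControl and 101, 104, 171 and 106 in shBrca2. All shBrca2 libraries were above all shControl libraries, and replicate 3 was the highest. The difference was 2.43-fold (log2 fold change 1.28 ± 0.27 SE, DESeq2 adjusted p = 0.00019), and the call held without any single library.

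Adamts2 (chromosome 11, 50602085 to 50807573), whose product removes the amino propeptide of fibrillar procollagens, had 777, 860 and 825 normalized counts in shControl and 430, 621, 351 and 467 in shBrca2. The groups did not overlap. Its log2 fold change came to -0.81 ± 0.20 (SE, DESeq2 adjusted p = 0.0026), and Adamts2 was called without any single library.

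Adamts4 (chromosome 1, 171250129 to 171262267), an aggrecanase gene, showed the smallest change among the called members and little spread. It had 829, 831 and 931 normalized counts in shControl and 579, 580, 686 and 554 in shBrca2, without overlap. On the log2 scale the fold change was -0.53 ± 0.15 (SE, DESeq2 adjusted p = 0.0070). The call was lost without shControl replicate 4 (adjusted p = 0.15), shBrca2 replicate 1 (0.14) or shBrca2 replicate 4 (0.13) in DESeq2.

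Adamts15 (chromosome 9, 30899155 to 30922452) had 807, 772 and 1092 normalized counts in shControl and 396, 346, 831 and 308 in shBrca2. Replicate 3 of shBrca2 lay among the shControl libraries, while the other shBrca2 libraries were below all of them. The log2 fold change was -0.93 ± 0.32 (SE, DESeq2 adjusted p = 0.047). It lost its call without shControl replicate 4, shBrca2 replicate 1 or shBrca2 replicate 4, with DESeq2 adjusted p-values of 0.21, 0.15 and 0.17. Adamts8, which lies 20.1 kb from Adamts15, had at most 8 reads in a library and a log2 fold change of -1.36 ± 0.88 (SE).

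Adamts1 and Adamts5, which lie 55.0 kb apart on chromosome 16, were both lower. Adamts1 (85793827 to 85803113), also a versican-cleaving enzyme gene, had 1593, 1065 and 1290 normalized counts in shControl and 700.5, 1040, 1047 and 745 in shBrca2. Its groups did not overlap, but the lowest shControl and highest shBrca2 libraries were close. This gave a log2 fold change of -0.58 ± 0.21 (SE, DESeq2 adjusted p = 0.078), and Adamts1 was called in 3 of the 7 fits with 1 library left out, with adjusted p-values of 0.43 without shControl replicate 1, 0.18 without shControl replicate 4, 0.34 without shBrca2 replicate 1 and 0.30 without shBrca2 replicate 4. Adamts1 was not called in edgeR (adjusted p = 0.11). Adamts5 (85858157 to 85901125), a major aggrecanase gene of cartilage, had 36.7, 8.86 and 36.0 normalized counts in shControl and 3.44, 9.91, 17.3 and 8.13 in shBrca2. Here shControl replicate 2 lay within the shBrca2 range. Its log2 fold change came to -1.57 ± 0.58 (SE, DESeq2 adjusted p = 0.072), and Adamts5 was called in 2 of the 7 such fits. The adjusted p was 0.38 without shControl replicate 1, 0.34 without shControl replicate 4, 0.28 without shBrca2 replicate 1, 0.14 without shBrca2 replicate 2 and 0.20 without shBrca2 replicate 4.

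**Figure D3:**
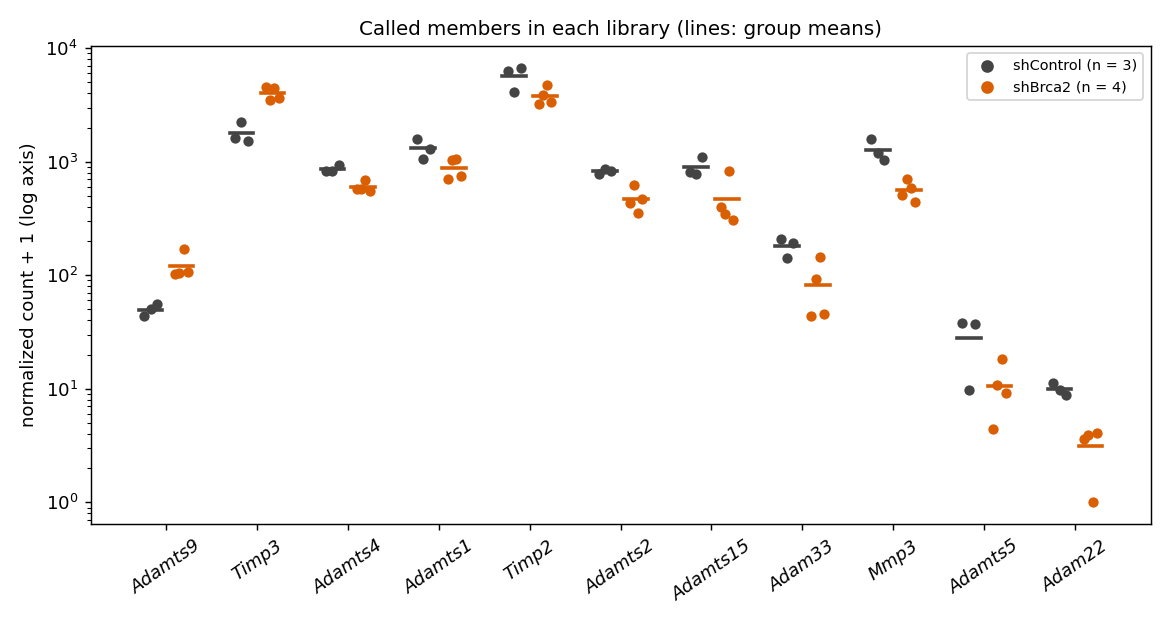
Normalized count plus 1 (y axis, log scale) of the 11 called members (x axis) in each library, with shControl in gray, shBrca2 in orange and lines at the group means of count plus 1. Timp3 and Adamts9 are higher in all 4 shBrca2 libraries. Mmp3, Adamts1, Adamts2, Adamts4 and Adam22 are lower in all 4, and Adam33, Adamts5, Adamts15 and Timp2 overlap between the groups.

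The remaining ADAMTS genes were not called. Adamts7 and Adamts12, whose enzymes cleave cartilage oligomeric matrix protein, had log2 fold changes of -0.05 ± 0.29 and 0.59 ± 0.37 (SE). Adamts6 and Adamts10, linked to fibrillin microfibrils, had 0.24 ± 0.31 and -0.23 ± 0.17 (SE). Adamts16, Adamts17 and Adamts19 had -0.36 ± 0.35, -0.24 ± 0.78 and 0.06 ± 0.85 (SE).

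The 5 ADAMTSL genes had estimates below 0, from -0.60 in Adamtsl2 to -0.02 in Adamtsl5, and none was called. Adamtsl1, whose product binds matrix, had 264, 254 and 247 normalized counts in shControl and 176, 200, 204 and 157 in shBrca2. The groups did not overlap, and its DESeq2 adjusted p was 0.069, but the log2 fold change of -0.47 ± 0.17 (SE) fell short of the fold threshold. It was called without shBrca2 replicate 3 (log2 fold change -0.52, DESeq2 adjusted p = 0.089) and in none of the other such fits (adjusted p up to 0.40). Adamtsl4, linked to fibrillin microfibrils, had -0.45 ± 0.26 (SE) and was called lower without shControl replicate 2 (log2 fold change -0.67, DESeq2 adjusted p = 0.072), whereas without shControl replicate 4 the estimate was -0.24 (adjusted p = 0.88). The estimates of Adamtsl3 and Adamtsl5 turned above 0 when 1 library was left out.

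Among the ADAMs, the principal sheddase genes were not called. Adam10, which codes for the main sheddase of Notch receptors and cadherins, had 51.3, 54.4 and 55.4 normalized counts in shControl and 92.9, 58.9, 55.3 and 71.1 in shBrca2. Its log2 fold change was 0.38 ± 0.27 (SE, DESeq2 adjusted p = 0.51). Adam17, which codes for the enzyme that releases tumor necrosis factor and epidermal growth factor receptor ligands, ran from 196 to 219 and from 173 to 212 normalized counts. On the log2 scale the fold change was -0.14 ± 0.17 (SE, DESeq2 adjusted p = 0.77), with a 95% interval from -0.47 to 0.20. For Adam12, Adam9 and Adam19 the values were 0.08 ± 0.22, -0.25 ± 0.21 and 0.02 ± 0.21 (SE). Adam15 had 457, 482 and 483 normalized counts in shControl and 336, 381, 430 and 312 in shBrca2, without overlap, and was not called (log2 fold change -0.38 ± 0.16 SE, DESeq2 adjusted p = 0.16).

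Adam33 (chromosome 2, 131050819 to 131063814), a catalytic ADAM gene of mesenchymal cells, was lower. It had 208, 140 and 190 normalized counts in shControl and 43.0, 90.9, 145 and 44.7 in shBrca2. The groups overlapped through shBrca2 replicate 3. The log2 fold change was -1.17 ± 0.38 (SE, DESeq2 adjusted p = 0.031). The call was lost without shControl replicate 1, shBrca2 replicate 1 or shBrca2 replicate 4, each with a DESeq2 adjusted p of 0.12.

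Adam22 (chromosome 5, 8072347 to 8368312), which codes for a protein without protease activity known as a neuronal receptor, was lower at very low counts. It had 10.3, 8.86 and 7.78 normalized counts in shControl and 2.58, 2.91, 0 and 3.05 in shBrca2. This gave a log2 fold change of -1.92 ± 0.75 (SE, DESeq2 adjusted p = 0.094), and the call was lost in all 7 fits with 1 library left out (adjusted p = 0.20 to 0.40) and in DESeq2's Wald test (adjusted p = 0.11). In the later annotation, 31.1% of its exon bases were shared with Sri on the opposite strand, and the strand setting of the counting was not given in the sources used here, so reads of the pair may not be separated. Adam5, a germ cell ADAM gene, had at most 14 reads and missed the count threshold with a mean of 4.27 (log2 fold change -2.23 ± 0.86 SE, DESeq2 adjusted p = 0.081).

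**Figure D4:**
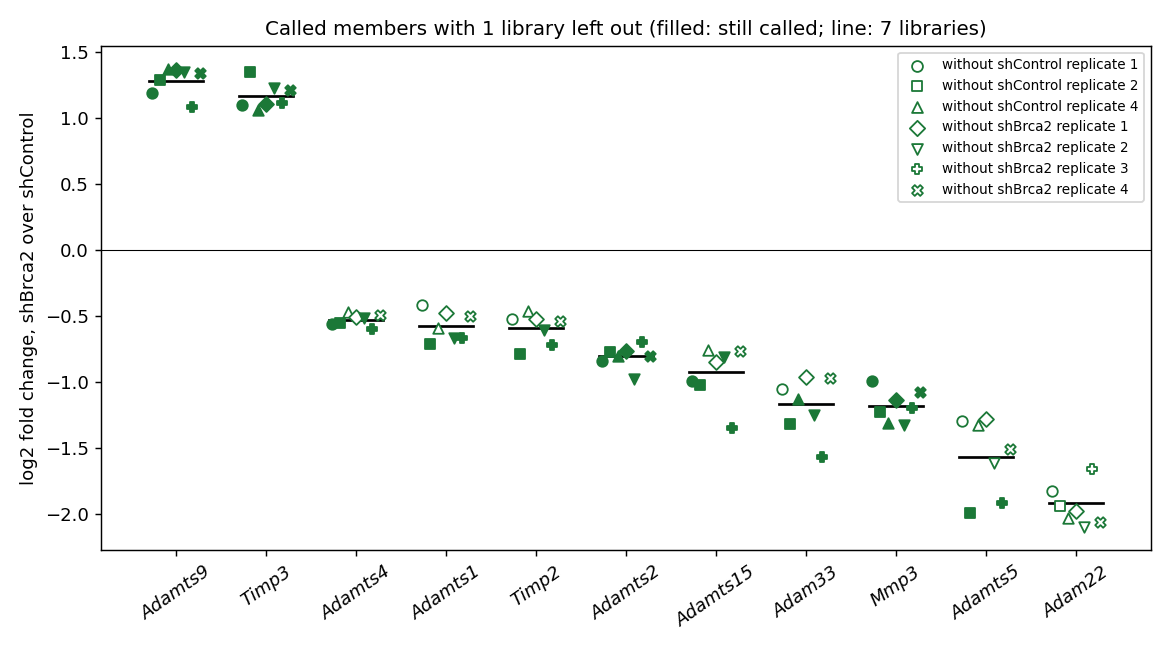
Log2 fold change (y axis) of the 11 called members (x axis) in the 7 fits with 1 library left out, 1 symbol per library, filled where the gene was still called, with a line at the value from all 7 libraries. Timp3, Adamts9, Mmp3 and Adamts2 are filled throughout, Adam22 is never filled, and no member changes sign.

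Timp3, Adamts9, Mmp3 and Adamts2 were thus the 4 members called in every fit with 1 library left out. The number of members called ran from 4, without shBrca2 replicate 1 or without shBrca2 replicate 4, to 13, without shControl replicate 2. All 11 called members kept their direction in these fits.

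Lists of genes that act with the members were also counted against the 9.04% of all genes called, with no set test. Of 24 regulators of metalloproteinases (activators, inhibitors, anchors and scavengers), 18 were in the table, with 1 higher and 6 lower. Reck, a membrane-anchored MMP inhibitor, had 107, 72.1 and 88.5 normalized counts in shControl and 37.9, 57.1, 32.8 and 45.7 in shBrca2. The groups did not overlap, and Reck was lower (log2 fold change -1.01 ± 0.28 SE, DESeq2 adjusted p = 0.0063), though not without shControl replicate 1 (adjusted p = 0.14). A2m, the protease-trapping alpha-2-macroglobulin, and Lrp1, a receptor that clears proteases and their complexes, were lower by 1.22 ± 0.25 and 0.76 ± 0.19 on the log2 scale (SE, log2 fold changes -1.22 and -0.76). The proprotein convertase gene Pcsk6 (-2.13 ± 0.33) and the procollagen C-proteinase enhancer genes Pcolce (-0.66 ± 0.17) and Pcolce2 (-1.53 ± 0.25) were lower as well. Cd44, which can anchor MMPs at the cell surface, was higher (0.74 ± 0.17). The calls of these genes other than Reck held without any single library.

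Partners of ADAM10 and ADAM17 were counted next, and 15 of 16 were in the table. Rhbdf2, which codes for iRhom2, the factor that carries ADAM17 to the cell surface, had 25.6, 55.7 and 48.6 normalized counts in shControl and 117, 109, 190 and 124 in shBrca2. The groups did not overlap, and Rhbdf2 was higher (log2 fold change 1.64 ± 0.31 SE, DESeq2 adjusted p = 2.66e-05) without any single library as well. Tspan17, which codes for a tetraspanin that binds ADAM10, was lower (log2 fold change -0.55 ± 0.17 SE, DESeq2 adjusted p = 0.025). It was not called without shControl replicate 2 (adjusted p = 0.15), shControl replicate 4 (0.16), shBrca2 replicate 1 (0.22) or shBrca2 replicate 4 (0.19) in DESeq2.

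Of 37 proteins that ADAMs release from the surface, 32 had a gene in the table, with 7 higher and 3 lower. The higher genes were the receptor Notch3 (1.12 ± 0.32), the epidermal growth factor receptor ligands Tgfa (1.41 ± 0.47) and Ereg (1.19 ± 0.38), the proteoglycan Sdc1 (0.99 ± 0.27), the adhesion molecule Vcam1 (0.98 ± 0.17) and the cadherins Cdh2 (1.28 ± 0.29) and Cdh11 (1.62 ± 0.46), each as log2 fold change ± SE. The lower genes were the chemokine Cx3cl1 (-0.76 ± 0.21), the adhesion molecule Icam1 (-0.76 ± 0.26) and the growth factor Csf1 (-0.92 ± 0.20). Calls of Sdc1, Vcam1, Cdh2 and Csf1 held without any single library. Without shControl replicate 4, Notch3, Ereg, Cx3cl1, Icam1 and Cdh11 were not called (DESeq2 adjusted p = 0.14, 0.19, 0.18, 0.33 and 0.12). Ereg was also lost without shBrca2 replicate 2 (log2 fold change 0.71, DESeq2 adjusted p = 0.18). Tgfa was called in 3 of the 7 fits (lost without shControl replicate 1 and shBrca2 replicates 1, 3 and 4, adjusted p = 0.39, 0.19, 0.15 and 0.11), and Icam1 also in 3 (lost further without shControl replicate 1 and shBrca2 replicates 1 and 4, adjusted p = 0.14, 0.23 and 0.20). Sdc1 and Notch3 are also expressed by other cells, and Notch3 was among the pericyte markers.

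Of 25 listed genes for substrates of ADAMTS enzymes, 21 were in the table, with 7 lower and 0 higher by DESeq2 (5 lower without Dcn and Nid1 and 0 higher by edgeR, and 0 above 0 at an unadjusted p under 0.05 in either). Fbn1, the microfibril protein fibrillin-1, and the microfibril-associated Ltbp4 and Efemp1 had log2 fold changes of -1.03 ± 0.15, -0.76 ± 0.17 and -2.0 ± 0.38 (SE). Comp, cartilage oligomeric matrix protein, had -1.99 ± 0.41 (SE), and its counts were 60.6, 35.4 and 31.1 in shControl and 11.2, 7.58, 13.8 and 12.2 in shBrca2. These 4 genes were called without any single library, and their groups did not overlap. The proteoglycan Dcn (-0.77 ± 0.28), the basement membrane protein Nid1 (-0.71 ± 0.26) and the latent TGFβ binding protein Ltbp1 (-1.27 ± 0.38) were each called in 3 of the 7 fits with 1 library left out. Dcn was lost without shControl replicate 1 or 4 or shBrca2 replicate 1 or 4 (DESeq2 adjusted p = 0.29, 0.35, 0.23 and 0.22), and Ltbp1 without the same libraries (0.28, 0.10, 0.14 and 0.12). Nid1 was lost without shControl replicate 1 (log2 fold change -0.41, DESeq2 adjusted p = 0.50) or shBrca2 replicates 1, 3 and 4 (0.16, 0.16 and 0.20).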

How the data were processed

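RNA of CAFs sorted from 7 tumors was measured by 3′-end sequencing (3 shControl and 4 shBrca2 libraries). Raw read counts per gene symbol were deposited by the authors as 1 table. The submitters' processing notes name bcl2fastq, cutadapt, STAR 2.4.2a, HTSeq, DESeq2 and the build mm10, while the annotation, strand setting and treatment of molecular barcodes were not given in the sources used here, so counts may include PCR copies. Groups follow the hairpin recorded for each sample. The labels do not say that replicates came from separate animals, whereas the study counts them as mice. Where they did not, p-values measure only the spread between these samples, which may be technical. All pairs of libraries differed by more than sampling noise (lowest mean chi-square per gene 3.35, between shBrca2 replicates 1 and 4). Replicate 2 of shControl was about as far from the other shControl libraries (16.97 and 17.13) as from the shBrca2 libraries (14.42 to 19.3). The reason was not tested.

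Counts of all 12771 genes were fitted in DESeq2 1.42.0 under R 4.3.3, using a likelihood ratio test of the group without covariates, and adjusted p-values are Benjamini-Hochberg values over all 12768 genes that received a p. Fold changes are shBrca2 over shControl and unshrunken. A call needed an adjusted p under 0.1, an absolute log2 fold change over 0.5 and a mean normalized count over 5, as in the study's methods. Alternatives were the Wald test, edgeR 4.0.16, TMM factors, a filter of 10 reads in 3 libraries, no independent filtering, each library left out in turn, and the replicate number as a block. The code was tested on simulated data.

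The members and lists were chosen with earlier results of these data known. Genes named were every called member, every member with an unadjusted p under 0.05, the 4 with the highest mean count in each subfamily, Mmp2, Mmp3, Mmp9, Mmp14, Timp1 to Timp3, Adam10 and Adam17, and the called genes of the partner lists. Other members named were chosen after their values were seen. Marker sums with 1 marker left out and the ratio of Mmp3 to Timp3 were also added after the values were seen. Gene and promoter positions and promoter sequences are RefSeq's on GRCm38.p6, which is the mm10 assembly, and 31 of 50 members had a promoter entry. Overlap of exons was taken from GENCODE vM39 on GRCm39, and 26 of 50 members, 6 of the 11 called, share exon bases with another gene there.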

Additional observations from a re-analysis of the deposited data

Results flagged for a closer look

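In the group of 4 shBrca2 libraries, 1 library stood far from the other 3 for 5 of the 50 members by Dixon's test of the gap over the range, which chance gives in about 1 of 20 groups. Adamts15 (830.73 normalized counts), Adamts9 (171) and Adam22 (0) were set apart in shBrca2 replicate 3, the library with the lowest total count. Mmp2 was set apart in shBrca2 replicate 2 (8581), and Adamts17 in shBrca2 replicate 4 (1.02, from a single read). The shControl group of 3 was not examined in this way.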

How the results depend on the processing

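No called member changed direction under any alternative. TMM factors and no independent filtering left the same 11 members called. The Wald test lost Adam22 (10 called), edgeR lost Adamts1 and Timp2 (9 called), and Adam22 was not among the genes kept by the low-count filter (10 called). Called lower were therefore 1 ADAM gene under the Wald test and the low-count filter, 0 TIMP genes under edgeR, and 2 ADAM10 and ADAM17 partners under the low-count filter.

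The replicate numbers are shared by the groups, but the labels record no pairing, litter, batch or day. Same-numbered libraries had correlations of their deviations from the group means of -0.066, -0.098 and -0.095. Libraries with unlike numbers had -0.102 to 0.186. With so few libraries, these values cannot tell whether same-numbered samples shared a day, litter or batch. With the replicate number as a block, 211 genes were called higher and 280 lower, and 6 members were called (Adam33, Adamts2, Adamts9, Adamts15, Mmp3 and Timp3), 4 of them lower. No shControl library has the number 3, so shBrca2 replicate 3 was alone in its block and did not inform the group difference. Under the block the log2 fold changes of Adamts15 and Adam33 were -1.33 and -1.65. Without shBrca2 replicate 3 and with no block they were -1.35 and -1.57. Lower under the block were 0 TIMP, 1 ADAM and 2 ADAMTS genes, 0 partners of ADAM10 and ADAM17 and 3 ADAMTS substrates, and the median log2 fold change was -0.51 for ADAMTS and -0.38 for all members.

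Among members that were not called, log2 fold changes turned sign for Adamts14 (-0.046) and Mmp9 (0.25) under the block, and for Adamts19 (-0.16 under edgeR, -0.60 under the block) and Mmp27 (-0.017 under edgeR, -0.076 under the block). The cause was not tested.

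With 1 library left out, counts ran from 261 to 610 genes higher and 354 to 695 lower, and members lower from 2 to 10. By subfamily the lower calls ran from 1 to 2 (MMP), 0 to 1 (TIMP), 0 to 1 (ADAM), 1 to 5 (ADAMTS) and 0 to 1 (ADAMTSL), and the higher TIMP calls from 1 to 2. Regulators called higher ran from 1 to 3, ADAM10 and ADAM17 partners lower from 0 to 2, shed proteins lower from 1 to 4 and ADAMTS substrates lower from 4 to 8. Median log2 fold changes ran from -0.42 to -0.21 (MMP), -0.011 to 0.83 (TIMP), -0.30 to -0.13 (ADAM), -0.55 to -0.20 (ADAMTS) and -0.39 to -0.21 (all members). The sign turned in Adam8 (-0.087 to 0.34), Adam11 (-0.35 to 0.39), Adam12 (-0.11 to 0.31), Adam19 (-0.055 to 0.091), Adamts7 (-0.34 to 0.14), Adamts14 (-0.13 to 0.35), Adamts16 (-0.66 to 0.021), Adamts17 (-0.53 to 0.087), Adamts19 (-0.94 to 0.88), Adamtsl3 (-0.80 to 0.060), Adamtsl5 (-0.16 to 0.095), Mmp9 (-0.53 to 0.26), Mmp15 (-0.17 to 0.70), Mmp17 (-0.25 to 1.19), Mmp27 (-0.21 to 0.29) and Timp1 (-0.011 to 0.83), none of them called in the fit of all libraries. For the 14 members with fewer than 30 reads in every library, a change was not detectable unless it was large.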
